A study of Mus musculus with 34 samples.

Results

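Genomic imprinting is the expression of a gene from one parental allele only. It rests on DNA methylation that is laid down differently in egg and sperm at a small number of CpG-rich control regions, several of which are themselves promoters. At an active promoter, H3K4me3 (trimethylation of lysine 4 of histone H3) flanks the start of transcription, and it is absent from methylated CpG islands, so that the 2 alleles of an imprinted control region usually carry opposite marks. Many imprinted genes act in the fetus, the placenta or the brain and are switched off in adult epithelia, whereas some genes of the same domains are active in most cells.

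The H3K4me3 signal at the promoters of 39 imprinted genes was examined, out of 55413 genes annotated in GENCODE M21 on the 21 chromosomes of the mouse genome build mm10. The genes were taken from a fixed list of symbols, whatever their signal, and all 39 symbols were found in the annotation. As listed, they comprise 14 genes with a germline-methylated region at their own promoter and 11 genes expressed from the maternal allele. The others are 6 further genes expressed from the paternal allele, 7 host or neighbouring genes of imprinted transcripts, and *Gnas*, which has several promoters. For each gene the value is the mean signal within 1000 bp on each side of its 5′ end, so every window has the same length. *Peg3* and *Usp29*, whose 5′ ends lie 147 bp apart, share most of a window, as do *Peg10* and *Sgce* at 99 bp, so the 39 genes provide 37 separate windows.

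H3K4me3 was profiled by CUT&RUN, in which an antibody directs a protein A and micrococcal nuclease fusion to the mark and the released DNA is sequenced. The nuclei came from villus cells, obtained by scraping small intestine without visible lesions, of 2 wild-type C57BL/6J mice and of 2 ApcMin/+ mice on the same background. ApcMin/+ mice carry 1 mutant allele of the tumour suppressor *Apc* in every cell and later develop intestinal tumours. The labels give an age of 5 weeks for all 4 mice, and the methods of the study give another age. Scraped villi are mostly enterocytes but can hold other cells. Since the mice are inbred, reads cannot be assigned to a parental allele, so a signal here is the sum of both alleles. In such bulk material, fewer cells with the mark and less mark per cell cannot be told apart.

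The values, called signal below, are per-base coverage that the authors set to a common 10000000 tags. Where 4 values follow a gene, they stand for wild-type replicate 1, wild-type replicate 2, ApcMin/+ replicate 1 and ApcMin/+ replicate 2, in this order. In that order the libraries held 1430000, 4790000, 3700000 and 5470000 tags. ApcMin/+ replicate 1 stood apart from the other 3 libraries. It was the highest library at 98.4% of the 12085 promoters whose mean signal reached 2, and its median at these promoters was 13.1, against 4.39, 3.02 and 4.11 in the other libraries. Its background, more than 5000 bp from any 5′ end, was the lowest, at 0.224 against 0.312, 0.333 and 0.314. For this reason each difference is also given after subtracting the median log2 value of the tested promoters from each library, which is called centring. Of 15 enterocyte markers, 13 reached a mean of 2 at their 5′ ends, led by *Vil1* (12.1, 4.55, 33.1 and 6.97). There, none of 11 secretory, 12 mesenchymal, 12 immune, 8 endothelial and 10 enteric neuron and glia markers did.

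The sequences before 8 of the annotated starts show how widely the imprinted promoters differ in CpG content. Each run below is 150 bases of build GRCm38.p6 (RefSeq), 5′ to 3′ on the gene's strand, with CpG sites in capitals. It ends at the base before the start, except in *Snrpn*, where 6 bases lie between the run and the 5′ end and 88 bases between the run and the downstream start. *Ube3a* and *Zdbf2* were chosen as CpG-dense promoters with the highest and one of the lowest signals of the 39 genes. *Airn* and *Peg3* are 2 control-region promoters, the first above and the second below a mean of 2. *Slc22a18* is a marked promoter without a single CpG in this run, and *Snrpn* and *Blcap* are genes whose signal lay at another start than the annotated 5′ end.
Ube3a 5′ end, chr7:59228600-59228749, plus strand: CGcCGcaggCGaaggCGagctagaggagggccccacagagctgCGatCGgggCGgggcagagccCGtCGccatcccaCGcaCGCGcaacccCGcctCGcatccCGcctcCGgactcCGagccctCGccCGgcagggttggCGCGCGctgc
Airn 5′ end, chr17:12741161-12741310, plus strand: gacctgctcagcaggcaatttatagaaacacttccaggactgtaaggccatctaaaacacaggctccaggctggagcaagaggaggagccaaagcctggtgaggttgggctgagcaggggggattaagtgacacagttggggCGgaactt
Peg3 5′ end, chr7:6730432-6730581, minus strand: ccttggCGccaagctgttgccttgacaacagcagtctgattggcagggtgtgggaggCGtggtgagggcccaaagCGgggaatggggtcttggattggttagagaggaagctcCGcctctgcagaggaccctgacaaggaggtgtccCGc
Slc22a18 5′ end, chr7:143473586-143473735, plus strand: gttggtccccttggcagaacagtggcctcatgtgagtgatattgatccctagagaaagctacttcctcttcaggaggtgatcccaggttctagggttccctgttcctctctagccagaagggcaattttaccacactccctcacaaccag
Zdbf2 5′ end, chr1:63273115-63273264, plus strand: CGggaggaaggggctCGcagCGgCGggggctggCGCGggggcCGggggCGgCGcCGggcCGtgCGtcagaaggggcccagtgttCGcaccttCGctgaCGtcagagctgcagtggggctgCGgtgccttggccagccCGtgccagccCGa
Snrpn 5′ end, chr7:60140226-60140375, minus strand: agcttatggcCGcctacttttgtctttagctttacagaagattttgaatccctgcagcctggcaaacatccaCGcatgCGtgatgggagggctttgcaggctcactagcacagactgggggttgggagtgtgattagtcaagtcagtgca
Snrpn downstream start, chr7:60005200-60005349, minus strand: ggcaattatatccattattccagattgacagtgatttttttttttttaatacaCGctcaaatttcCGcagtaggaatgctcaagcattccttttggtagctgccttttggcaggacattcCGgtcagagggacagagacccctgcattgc
Blcap downstream start, chr2:157566362-157566511, minus strand: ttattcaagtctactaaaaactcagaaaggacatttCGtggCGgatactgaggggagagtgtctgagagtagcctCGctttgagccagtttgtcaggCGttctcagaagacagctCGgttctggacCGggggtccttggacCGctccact

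The CpG count of these runs was 22 for *Ube3a*, 18 for *Zdbf2*, 5 for *Peg3*, 1 for *Airn*, 0 for *Slc22a18*, 3 for each of the *Snrpn* starts and 7 for the *Blcap* start. *Ube3a* and *Zdbf2*, the 2 richest in CpG of these runs, had been chosen for their CpG density and their signals. No relation of CpG content and signal is read from them.

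Most imprinted promoters carried little H3K4me3 in villus cells. The mean signal over the 4 libraries reached 2 at 14 of the 39 genes (35.9%), lay between 1 and 2 at 6 and was under 1 at 19. The same level was reached by 21.8% of all annotated genes and by 45.3% of the 21938 protein-coding genes. The median over the 39 genes was 1.05, 0.981, 0.886 and 1.22, against 1.39, 0.974, 1.62 and 1.39 over all protein-coding genes. Just above the level of 2 were *Copg2* (2.34) and *Cdkn1c* (2.06), and just under it were *Igf2r* (1.94) and *Phlda2* (1.88). Since the mean includes ApcMin/+ replicate 1, some genes reached 2 through that library. Without it 10 genes did, while *Slc22a18*, *Airn*, *Copg2* and *Cdkn1c* fell below.

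**Figure D1:**
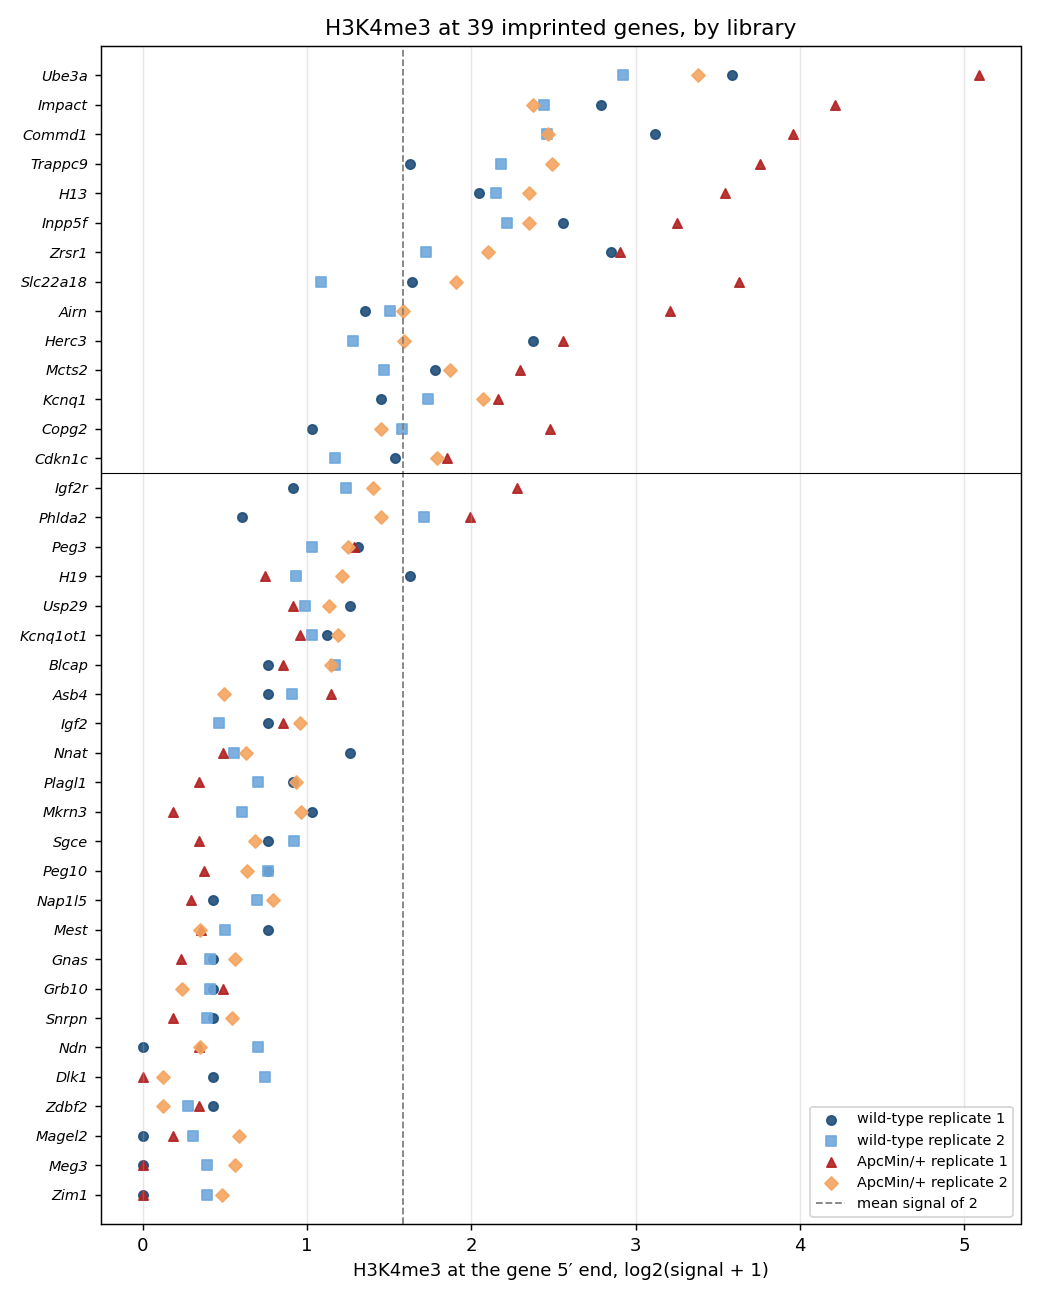
H3K4me3 at the 5′ ends of the 39 imprinted genes, ordered by their mean, as log2(signal + 1) in each of the 4 libraries (points, no error bars since each is 1 mouse). The dashed line is a signal of 2 and the solid line separates the 14 genes whose mean reached it, at each of which ApcMin/+ replicate 1 (triangle) is the highest library, from the other 25.

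The level differed between the classes of gene. Of the 7 host or neighbouring genes, 6 reached a mean of 2 (median of the class 5.29). These are mostly general cell functions that are imprinted, if at all, only in certain tissues. The count was 4 of 14 for genes listed with a germline-methylated region at their promoter (median 0.908). It was 4 of 11 for maternally expressed genes (median 1.88) and 0 of 6 for the other paternally expressed genes (median 0.286). All counts are for the annotated 5′ end, which in *Snrpn* is not the methylated promoter. Whether it is in the others of the 14 was not examined. In *Mest* and *Plagl1* the ratio of observed to expected CpG was 0.166 and 0.495 at the 5′ end. At their annotated starts with the highest mean signal, 14503 and 30187 bp downstream, the ratio was 0.738 and 0.765. With the highest annotated start, 5 of these 14 reached 2. *Gnas* was at 0.334 at its 5′ end.

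*Ube3a*, on chromosome 7 from 59228750 to 59311536, had the highest signal. It encodes a ubiquitin ligase that is imprinted in neurons and expressed from both alleles in most other tissues. Its signal was 11.04, 6.59, 33.0 and 9.41, from 31.6, 63.1, 245 and 103 fragments. All 4 libraries were far above background, ApcMin/+ replicate 2 lay between the wild-type mice, and the mean of 15.0 exceeded that of 99.3% of protein-coding genes. The signal formed 2 flanks with a dip near the start, within an enriched region of 2700 bp.

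The host and neighbour genes followed. *Commd1*, which encodes a copper metabolism protein, was at 7.67, 4.51, 14.5 and 4.52. *Trappc9*, a vesicle tethering subunit, was at 2.09, 3.54, 12.5 and 4.61. *H13*, a signal peptide peptidase, was at 3.14, 3.44, 10.7 and 4.11, and *Inpp5f*, a phosphoinositide phosphatase, was at 4.88, 3.65, 8.53 and 4.11. *Herc3*, a ubiquitin ligase, was at 4.18, 1.43, 4.88 and 2.01, and *Copg2*, a coatomer subunit, at 1.05, 1.98, 4.59 and 1.73. In each of these genes ApcMin/+ replicate 1 was the highest library, and in all but *Herc3*, where wild-type replicate 1 was nearly as high, the other 3 libraries lay closer to each other than to it.

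Several host genes contain or adjoin a retrogene or a paternally expressed gene that is listed with a methylated promoter. At the annotated 5′ ends, the mean signal of these inner or adjoining genes was lower than that of their hosts. *Zrsr1*, a splicing factor retrogene within *Commd1*, was at 6.20, 2.31, 6.51 and 3.29, and its signal rose downstream of the 5′ end. *Mcts2*, a retrogene in an intron of *H13* and 17574 bp from its 5′ end, was at 2.44, 1.77, 3.91 and 2.65. *Nap1l5*, a nucleosome assembly retrogene within *Herc3*, was at 0.349, 0.623, 0.225 and 0.730. *Nnat*, a membrane proteolipid gene of the brain within *Blcap*, was at 1.39, 0.472, 0.405 and 0.548, which exceeded the 5′ end of its host in wild-type replicate 1. *Mest*, a hydrolase gene of the mesoderm that ends beside *Copg2*, was at 0.697, 0.418, 0.278 and 0.274. *Zrsr1* and *Mcts2* therefore carried the mark in all 4 libraries, and the other 3 were within the range of 10 genes that the gut does not use (mean signals from 0 to 1.25).

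Among the other genes listed with a methylated promoter, *Impact*, a translational regulator on chromosome 18, was the highest. At its 5′ end it was at 5.93, 4.45, 17.6 and 4.20, with a ratio of observed to expected CpG of only 0.314. Another enriched region, with a mean signal of 2.66, lay 16449 bp downstream. Where in *Impact* the methylated region lies was not examined. *Airn*, the non-coding antisense RNA on chromosome 17 from 12741311 to 12860136, starts within *Igf2r* and keeps the paternal copies of that cluster silent. It was at 1.56, 1.84, 8.26 and 2.002. *Igf2r*, a receptor that clears the growth factor IGF2 and is maternally expressed, was at 0.886, 1.36, 3.86 and 1.64, and an enriched region of 1900 bp was found at each of these starts. The 2 starts lie 28353 bp apart, and both were highest in ApcMin/+ replicate 1. *Kcnq1ot1*, the corresponding non-coding RNA of the *Kcnq1* cluster, was at 1.18, 1.04, 0.945 and 1.28.

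The remaining genes listed with a methylated promoter also had means under 2 at their annotated 5′ ends. *Peg3*, a zinc finger gene, was at 1.48, 1.04, 1.44 and 1.38 and *Usp29*, which shares its window and encodes a ubiquitin protease, at 1.39, 0.981, 0.886 and 1.199. An enriched region of 1600 bp lay on the *Peg3* side, with a mean signal of 2.34 over the 1000 bp downstream of the *Peg3* 5′ end and 0.340 over the 1000 bp upstream. *Plagl1*, a zinc finger regulator of growth, had a mean of 0.674. *Peg10* and *Sgce*, a retrotransposon-derived gene and a sarcoglycan gene with a shared window, had means of 0.560 and 0.617. *Snrpn*, a splicing gene, had 0.313, but its methylated promoter is the downstream start described below, where the mean was 3.44. In *Plagl1*, *Peg10*, *Sgce* and *Snrpn*, ApcMin/+ replicate 1 was the lowest library. It held only 2, 2.2, 2 and 1 fragments there, fewer than the 3 set as the detection limit, so nothing is read from this order. ApcMin/+ replicate 1 was the lowest at 12 of the 25 genes with a mean under 2, a mean that includes it. The share over all genes with such a mean was not examined.

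The *H19*, *Igf2* and *Kcnq1* genes lie in 1 imprinted region of growth control on chromosome 7. *H19*, a maternally expressed non-coding RNA, was at 2.09, 0.914, 0.675 and 1.32, from 6, 8.7, 5 and 14.4 fragments. *Igf2*, the growth factor on the opposite allele, was at 0.697, 0.379, 0.810 and 0.943. *Kcnq1*, a potassium channel subunit, was at 1.73, 2.34, 3.48 and 3.20, and *Cdkn1c*, an inhibitor of cell division, at 1.90, 1.25, 2.61 and 2.46. *Phlda2*, a brake on placental growth, was at 0.522, 2.28, 2.98 and 1.74. *Slc22a18*, a transporter on chromosome 7 from 143473736 to 143499334, was at 2.11, 1.12, 11.4 and 2.75, within an enriched region of 4300 bp that was the longest at any of the 14 genes. Both ApcMin/+ mice lay above both wild-type mice in *Kcnq1*, *Cdkn1c* and *Slc22a18*, an order found at 38.7% of all promoters tested, and after centring only *Slc22a18* of these 3 kept it. *Igf2* had the same order from only 2, 3.6, 6 and 10.3 fragments, and the groups overlapped in *H19*, *Phlda2* and *Kcnq1ot1*.

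The rest of the 39 genes had means under 1, many of them near the limit of detection. The 3 maternally expressed genes *Meg3*, a non-coding RNA, *Zim1*, a zinc finger gene, and *Grb10*, an adaptor that dampens insulin signalling, had means of 0.197, 0.178 and 0.317, and *Asb4*, a ubiquitin ligase adaptor, had 0.801. The paternally expressed *Ndn*, *Magel2* and *Mkrn3* of the Prader-Willi region had 0.293, 0.219 and 0.664, *Dlk1*, a Notch ligand homologue, had 0.279, and *Zdbf2* had 0.230. A count of 3 fragments corresponded to a signal of 1.05 in wild-type replicate 1, 0.313 in wild-type replicate 2, 0.405 in ApcMin/+ replicate 1 and 0.274 in ApcMin/+ replicate 2, for counting error only. At or under that limit were 21, 5, 16 and 5 of the 39 genes, respectively, so there a signal was not detectable at this depth rather than absent.

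**Figure D2:**
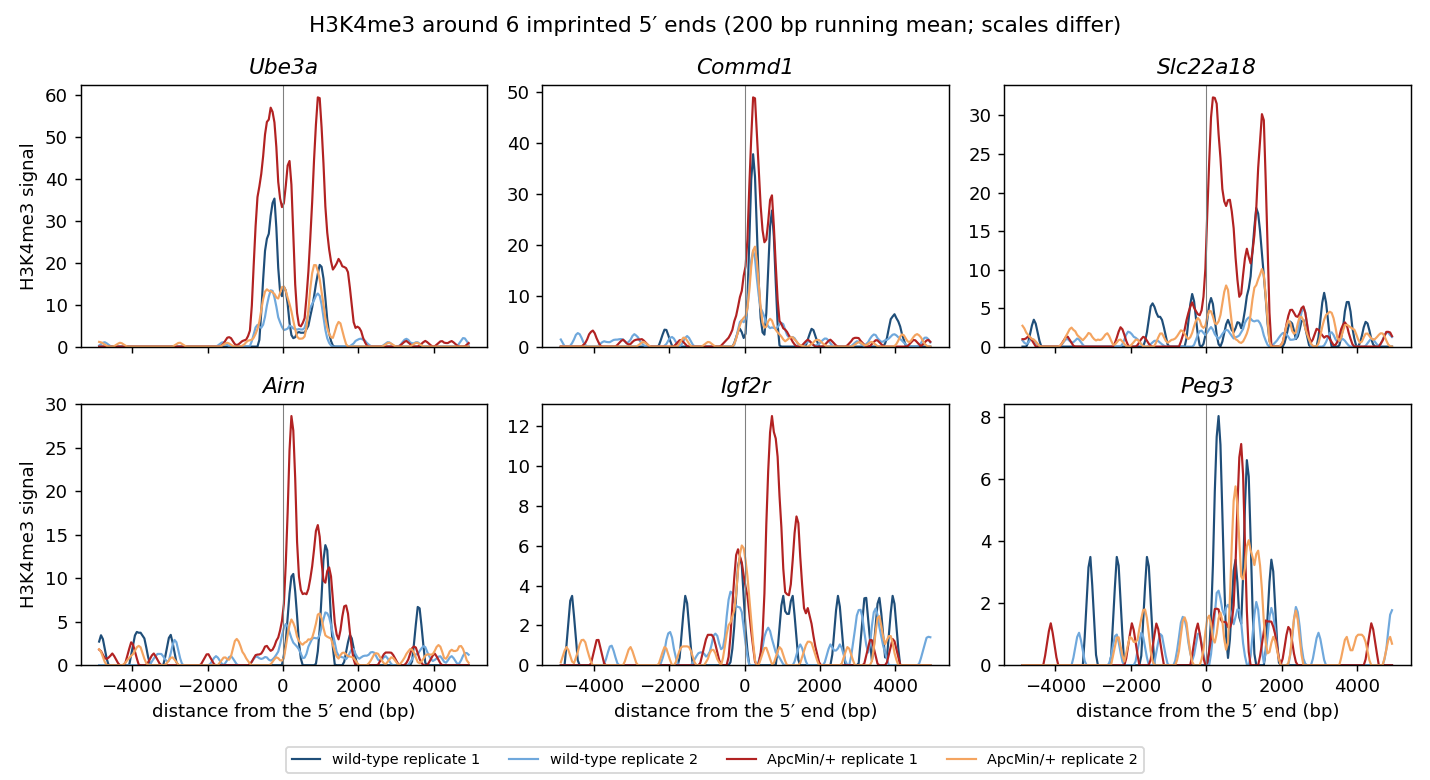
H3K4me3 signal (running mean over 200 bp) from 5000 bp before to 5000 bp after the 5′ ends of *Ube3a*, *Commd1*, *Slc22a18*, *Airn*, *Igf2r* and *Peg3*, oriented by strand, with 1 line per library and a scale of its own in each panel. The signal peaks downstream of the start in *Commd1* and *Airn*, on both sides in *Ube3a*, at a second position beyond 1000 bp in *Slc22a18*, and is lowest in scale at *Peg3*, where it also lies downstream.

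The position of the mark was similar among the 14 genes with a mean of at least 2. In 13 of them the 1000 bp downstream of the start held more signal than the 1000 bp upstream, *Ube3a* being the exception, with 16.4 upstream and 13.6 downstream. In *H13* these values were 9.95 downstream and 0.740 upstream, and in *Commd1* 14.01 and 1.62. How many of all 12085 promoters have more signal downstream was not examined, so nothing particular to the imprinted genes is read from this. The enriched regions at the 14 genes had a median length of 1700 bp, from 800 bp at *Mcts2* to 4300 bp at *Slc22a18*, compared with 2100 bp over all 12085 promoters of this level.

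The annotated 5′ end is not always the start in use, so every annotated transcript start of the 39 genes was examined. The highest start lay more than 1000 bp from the 5′ end in 13 genes. With the highest start, 18 genes reached a mean of 2, the added ones being *Blcap*, *Gnas*, *Snrpn* and *Phlda2*, and 21 genes stayed below it at every start. Over all protein-coding genes the share rose from 45.3% to 49.2%. Because the start was chosen by its signal, these values are a description.

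*Blcap*, an apoptosis-related gene, was at 0.697, 1.25, 0.811 and 1.22 at its 5′ end but at 7.67, 6.28, 29.9 and 5.87 at a start 4913 bp downstream. *Gnas*, which encodes the stimulatory G protein subunit and several imprinted transcripts, was at 0.349, 0.329, 0.178 and 0.480 at its 5′ end, where an imprinted neuroendocrine transcript begins. At a start 45777 bp downstream it was at 2.72, 2.30, 14.03 and 4.01. *Snrpn* was at 0.349, 0.313, 0.135 and 0.457 at its 5′ end and at 3.20, 1.32, 6.64 and 2.59 at a start 135108 bp downstream. That second start is the promoter that carries the germline methylation mark of the Prader-Willi region. In these 3 genes the other start exceeded the 5′ end in all 4 libraries.

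*Kcnq1* was also higher 1189 bp downstream of its 5′ end, at 3.14, 2.96, 15.2 and 3.62. *Igf2* reached a mean of 1.25 at a start 7327 bp downstream (0.349, 0.692, 2.25 and 1.70). In *Mest* the highest start lay 14503 bp downstream, with a mean of 0.649. The other 7 genes with a distant highest start were *Zrsr1* (5.22) and *Slc22a18* (5.18), which were marked at the 5′ end too, and *Grb10* (0.800), *Meg3* (0.749), *Zim1* (0.705), *Plagl1* (0.685) and *Dlk1* (0.680).

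**Figure D3:**
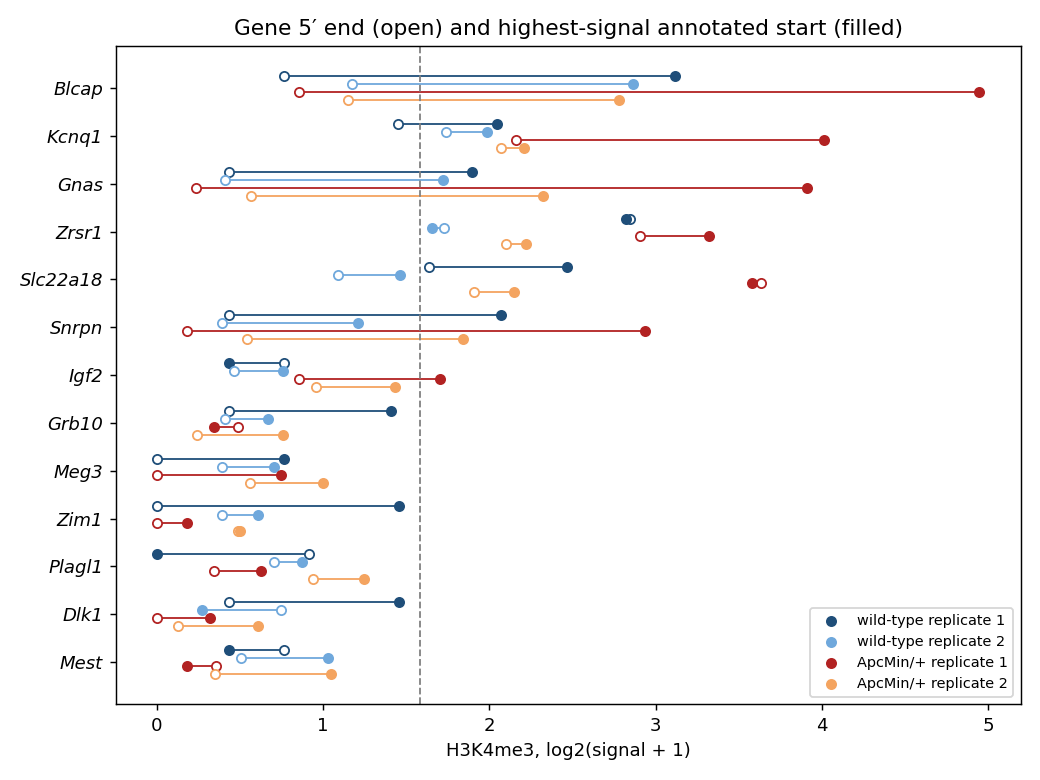
Signal at the annotated 5′ end (open circles) and at the annotated start with the highest mean (filled circles), as log2(signal + 1), for the 13 genes in which the 2 are more than 1000 bp apart, with 1 line per library. *Blcap* and *Gnas* cross the dashed line of a signal of 2 in all 4 libraries and *Snrpn* in 3, whereas *Grb10*, *Meg3*, *Zim1*, *Plagl1*, *Mest* and *Dlk1* stay to its left.

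CpG-rich promoters of most genes carry H3K4me3, and the CpG content of the imprinted promoters was set beside their signal. A window was called CpG-rich where its GC content was at least 50% and its ratio of observed to expected CpG at least 0.6. Of 6532 protein-coding genes with such a window, 78.1% reached a mean of 2, whereas 6 of 14 imprinted genes did (42.9%). The 6 were *Ube3a*, *H13*, *Zrsr1*, *Herc3*, *Copg2* and *Cdkn1c*, and the 8 below were *Igf2r*, *Peg3*, *Usp29*, *Peg10*, *Sgce*, *Gnas*, *Dlk1* and *Zdbf2*. With CpG-poor windows, 8 of 25 imprinted genes (32%) and 31.4% of protein-coding genes reached the level. Across genes, the Spearman correlation of the CpG ratio with mean signal was 0.129 over the 39 imprinted genes and 0.686 over all protein-coding genes. Genes are not independent replicates. The 2 pairs of the 39 that share windows, *Peg3* with *Usp29* and *Peg10* with *Sgce*, are all among the 8 CpG-rich genes below. Without ApcMin/+ replicate 1, *Copg2* and *Cdkn1c* of the 6 above had means of 1.59 and 1.87. The extremes were *Zdbf2*, with a CpG ratio of 0.958 and a mean signal of 0.230, and *Slc22a18*, with 0.0869 and 4.35.

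**Figure D4:**
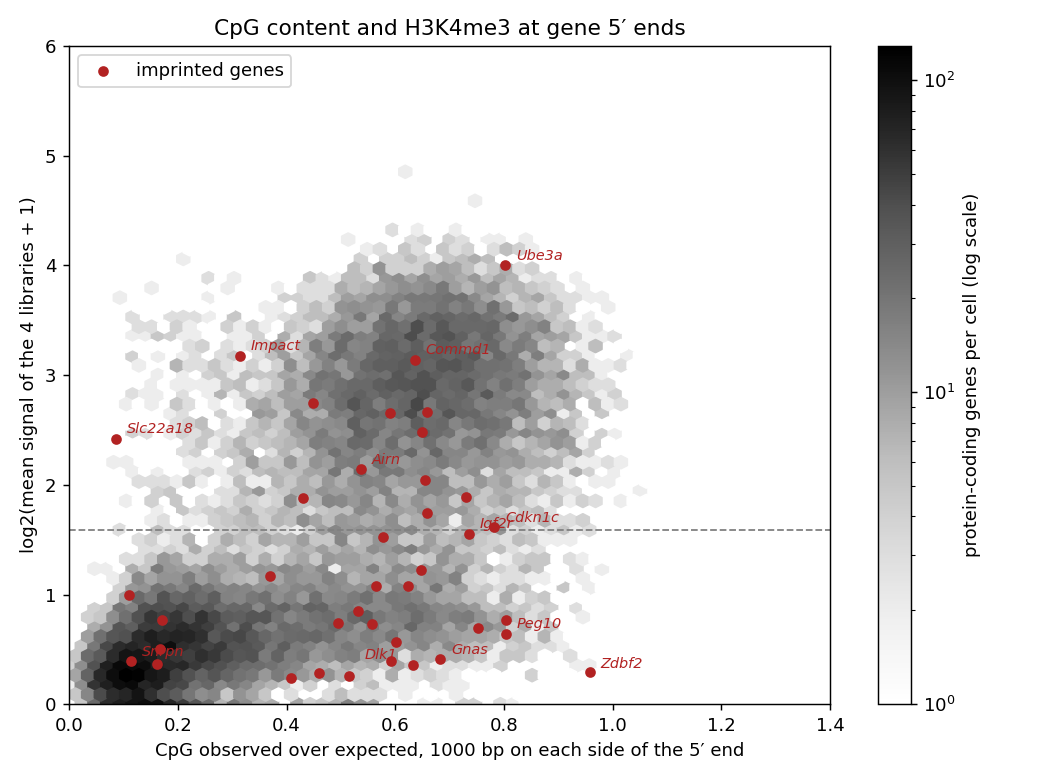
Mean signal of the 4 libraries as log2(signal + 1) against the ratio of observed to expected CpG in the window, for all protein-coding genes (grey cells, shaded by number on a log scale) and the 39 imprinted genes (red). The dashed line is a signal of 2, and *Zdbf2*, *Peg10* and *Gnas* lie below it at ratios where most genes lie above.

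The hexamer TGCCGC, which the zinc finger protein ZFP57 binds when methylated, was searched on both strands in the RefSeq promoters, each 250 bases before to 50 bases after a start. Of the 39 genes, 32 had a match there, with 48 promoters. The hexamer was present in 14 of these 48 (29.2%) and in 11.6% of all 32851 promoters. The promoters of the imprinted genes also held more CpG, with a median of 15 against 7. These are matches of letters and not binding sites.

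The comparison of ApcMin/+ with wild type asked whether the mark at imprinted promoters differed in tissue without visible tumours. None of the 14 imprinted promoters that could be tested was called, and neither was any of the 12085 promoters (percent called 0, limma with trend on log2(signal + 1), Benjamini-Hochberg adjusted p of at least 0.683). An unadjusted p under 0.05 was found for 165 of the 12085 and for 0 of the 14. The other 25 genes did not pass the filter on low signal, and some of the 14 passed it through ApcMin/+ replicate 1 alone, so that the 14 are not a neutral sample of the 39. After centring, 12 of 12085 were called (0.0993%) and again none of the 14. The smallest p that an exact two-sided permutation test of 2 mice against 2 can give is 0.333, so none is given for single genes.

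As deposited, the ApcMin/+ mean on the log2 scale was higher for all 14 genes, by 0.22 to 1.41, with a median of 0.59. The median over all promoters tested was higher still, at 0.85, and relative to the median promoter of each library the imprinted genes had a median difference of -0.27, with 4 genes above 0 and 10 below. Both ApcMin/+ libraries exceeded both wild-type libraries at 7 of the 14, against the same 38.7% of all promoters tested. The opposite order was found at 0 of 14 and 0.165% of all. After centring, 1 of 14 was higher without overlap (12.5% of all) and 3 of 14 were lower (14.6% of all). Counts of this size among 14 genes are near the background shares, and nothing particular to the imprinted genes is read from them.

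The 7 genes without overlap were *Trappc9*, *H13*, *Slc22a18*, *Airn*, *Mcts2*, *Kcnq1* and *Cdkn1c*. *Slc22a18* had the largest log2 difference, 1.41 ± 0.78 (SE, n = 2 mice per group, limma adjusted p = 0.683), and 0.54 ± 0.39 after centring. At its 5′ end it was the only one of the 14 whose groups did not overlap, with ApcMin/+ higher, on both scales. At its highest annotated start, 1365 bp downstream, the groups overlapped, with wild-type replicate 1 at 4.53 and ApcMin/+ replicate 2 at 3.44. Without ApcMin/+ replicate 1 the mean at its 5′ end was 1.996, under the filter of 2. *Trappc9* followed with 1.22 ± 0.96, and 0.35 ± 0.31 after centring, then *Ube3a*, whose groups overlapped, with 0.98 ± 1.30 and 0.11 ± 0.34. *Airn* differed by 0.97 ± 0.73 and *H13* by 0.85 ± 0.96, and after centring by 0.10 ± 0.44 and -0.014 ± 0.31. *Kcnq1* (0.52 ± 0.71), *Cdkn1c* (0.47 ± 0.62) and *Mcts2* (0.46 ± 0.71) were below the median promoter after centring, at -0.34 ± 0.46, -0.40 ± 0.57 and -0.41 ± 0.46. In each of these genes the standard error was large compared with the difference, and the limma adjusted p was 0.683 as deposited and 1.00 after centring.

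The lowest differences relative to the median promoter were those of *Zrsr1*, *Herc3* and *Inpp5f*, at -0.65 ± 0.33, -0.62 ± 0.42 and -0.45 ± 0.30. As deposited, they were 0.22 ± 0.91, 0.24 ± 0.74 and 0.42 ± 0.99, with limma adjusted p of 0.827, 0.769 and 0.721. In *Herc3* and *Inpp5f*, as in *Commd1* (-0.44 ± 0.29, and 0.42 ± 1.15 as deposited), both ApcMin/+ libraries lay below both wild-type libraries after centring.

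**Figure D5:**
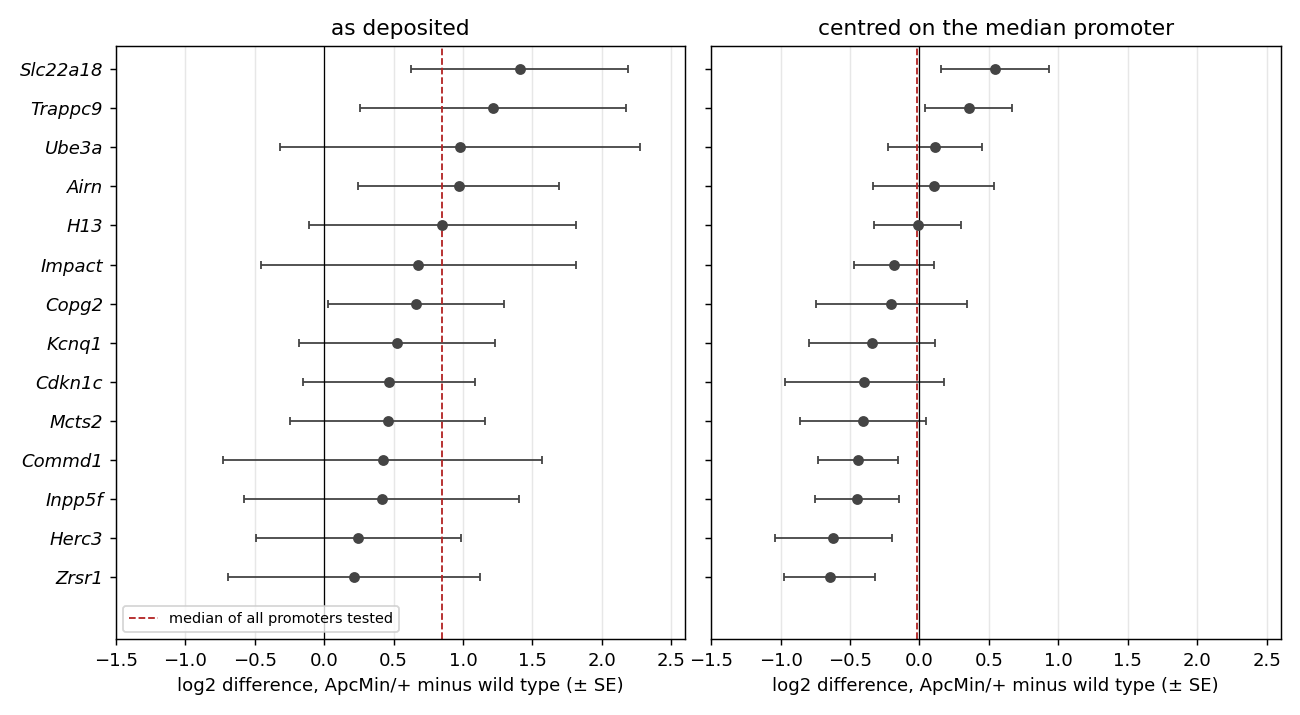
Log2 difference of ApcMin/+ minus wild type for the 14 imprinted genes tested (points, bars ± SE from limma, n = 2 mice per group), as deposited on the left and after centring on the right. The dashed line is the median of all 12085 promoters, and on the left all 14 points lie above 0 while 9 lie below that line.

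ApcMin/+ replicate 1 had a large part in most of these differences. It was the highest library at all 14 genes, and ApcMin/+ replicate 2 lay between the wild-type mice at 6 of them, above both at 7 and below both at 1. Without ApcMin/+ replicate 1 the median difference of the 14 was 0.15, and no promoter was called. *Kcnq1* and *Cdkn1c* then kept differences of 0.48 and 0.44, close to those with all libraries, while *Zrsr1*, *Herc3* and *Inpp5f* were at -0.19, -0.24 and -0.034. With 1 ApcMin/+ mouse left, 7 of the 14 were higher without overlap, against 4702 of the 12085 promoters tested. Without ApcMin/+ replicate 2, so that the remaining ApcMin/+ mouse was assumed to vary like the wild-type mice, 8012 of the 12085 promoters were called, among them 6 of the 14: *Impact*, *Trappc9*, *H13*, *Slc22a18*, *Airn* and *Copg2*. The part that this 1 library's preparation has in the differences was not tested.

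Averaged over all 39 genes, the signal was 1.68 ± 0.274 in wild type and 2.94 ± 1.63 in ApcMin/+ (SD, n = 2). The 2 ApcMin/+ mice were at 4.09 and 1.79 and the wild-type mice at 1.87 and 1.49, so the spread within ApcMin/+ exceeded the difference between the groups. Over the 25 genes with a mean under 2 the averages were 0.698 ± 0.0164 and 0.711 ± 0.0496. These 2 averages differed by less than the spread between the mice. The medians of the 25 were 0.697 and 0.626 in the wild-type mice and 0.278 and 0.551 in the ApcMin/+ mice. Those of wild-type replicate 1 and ApcMin/+ replicate 1 were under the limit of 3 fragments. The 25 were set apart by a mean that includes ApcMin/+ replicate 1, so they are not a neutral sample of the 39.

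A further 44 imprinted genes and 28 genes that set or keep imprints were listed for comparison. Of the other imprinted genes 13 of 44 (29.5%) had a mean of at least 2, none was called, and 3 of the 13 were higher in ApcMin/+ without overlap, where 38.7% of all promoters tested were. After centring, 1 was higher and 1 lower without overlap, against 12.5% and 14.6% of all promoters tested. The highest were *Nap1l4*, a nucleosome assembly gene at the edge of the *Kcnq1* domain (11.5, 4.97, 24.6 and 6.03), *Bcl2l1*, a survival factor (7.68, 2.92, 24.1 and 5.08), and *Dhcr7*, a sterol reductase (9.06, 3.20, 20.8 and 4.88). *Peg13*, the non-coding RNA within *Trappc9*, was named after its values were seen and was at 4.53, 2.86, 6.61 and 3.36.

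Of the imprint regulators 16 of 28 (57.1%) reached this level, none was called, and 6 of the 16 were higher in ApcMin/+ without overlap, near the 38.7% of all promoters tested. After centring, 2 were higher and 1 lower without overlap, against 12.5% and 14.6% of all promoters tested. The highest were *Arid4b* (5.10, 6.71, 25.3 and 5.11), a chromatin protein, *Smchd1* (6.85, 4.14, 19.9 and 6.12), which maintains silencing, and *Eed* (6.07, 3.49, 20.9 and 5.11), a Polycomb subunit. The next 3 genes were named after their values were seen. *Zfp57*, which protects methylation at control regions in the embryo, was at 0, 0.418, 0 and 0.278. The maintenance methyltransferase *Dnmt1* and the corepressor *Trim28* had means of 0.555 and 0.873 at their 5′ ends, but of 5.43 and 8.80 at their highest annotated starts.

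The markers of other cell types were low in both groups at their annotated 5′ ends. At their highest annotated starts, *Esam* of endothelium (3.43) and *Lck* of immune cells (2.35) reached a mean of 2, as did all 15 enterocyte markers. The sums and means that follow are for the 5′ ends. Summed over its list, the mesenchymal signal was 4.88 and 5.82 in the wild-type mice and 4.93 and 7.06 in the ApcMin/+ mice, the immune signal was 7.47 and 7.98 against 16.96 and 11.3, and the secretory signal was 8.49 and 7.39 against 14.9 and 10.00. The endothelial sums were 7.41 and 6.03 against 4.79 and 7.14, those of enteric neurons and glia 5.37 and 6.71 against 7.55 and 7.63, and those of the enterocyte list 83.0 and 51.2 against 239 and 65.2. The highest genes of these lists were *Thy1*, *Col1a1* and *Acta2* of mesenchyme (means of 0.805, 0.795 and 0.754), *Lck*, *Cd3e* and *Cd52* of immune cells (1.56, 1.31 and 1.17), and *Muc2*, *Spink4* and *Fcgbp* of secretory cells (1.85, 1.51 and 1.34). They were *Cldn5*, *Esam* and *Pecam1* in endothelium (1.17, 1.07 and 0.965) and *Ret*, *Sox10* and *Tubb3* in neurons and glia (1.39, 0.882 and 0.807), against *Vil1*, *Cdx2* and *Alpi* in enterocytes (14.2, 11.1 and 11.05). Among 10 genes that the gut does not use, *Krt76* and *Ins1* were highest (1.25 and 0.962) and *Amy2a5* was at 0 in all 4 libraries. The part of such cells in the signal of the imprinted genes was not tested.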

How the data were processed

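H3K4me3 CUT&RUN was performed by the authors on scraped villus cells of 2 wild-type and 2 ApcMin/+ mice. Per the labels and the methods, reads were trimmed, aligned to mm10 with Bowtie2, deduplicated with Picard and filtered on mapping quality, and fragments of 150 to 500 bp were kept. The deposited files hold HOMER coverage signal, which the authors set to a common depth of 10000000 tags, without subtraction of a control and without pooling of replicates. Scaling to all tags lets a library with more tags at promoters have a higher signal at every promoter, which is why differences are also given relative to the median promoter. Reads from near-identical copies and the 2 parental alleles cannot be told apart. The other 30 samples of the series were not used here.

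The signal was averaged over 1000 bp on each side of each GENCODE M21 gene 5′ end. For the test, 1 was added and log2 was taken, promoters with a mean under 2 were left out, and limma 3.58.1 (R 4.3.3) with an intensity trend was fitted over the 12085 remaining promoters, calling an adjusted p (Benjamini-Hochberg) under 0.05. Groups came from the labels. Enriched regions were stretches above 5 times the genome mean signal of 0.366, in bins of 100 bp, joined over gaps of up to 500 bp and at least 300 bp long. A fragment was worth a signal of 0.349 and 0.104 in wild-type replicates 1 and 2 and of 0.135 and 0.0914 in ApcMin/+ replicates 1 and 2, and the detection limit was set at 3 fragments. On simulated data with 200 promoters of 12085 changed 4-fold, 93% were recovered. With 1 ApcMin/+ library raised 3-fold, 0% were recovered as deposited and 95% after centring. The simulated libraries varied by counting error only and not between mice. These shares are therefore a check of the procedure and not the power of the test on these mice. Tables were made with Python 3.11.15, numpy 2.4.6, pandas 2.3.3, scipy 1.17.1 and matplotlib 3.10.9.

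All 39 imprinted genes are named. Differences with their errors are given for tested genes only, namely those whose groups did not overlap, the 3 highest and 3 lowest relative to the median promoter, and the tested genes of the *H19*, *Igf2* and *Kcnq1* region (*Kcnq1*, *Cdkn1c* and *Slc22a18*). Of each other list the 3 genes with the highest mean are named, except 1 that is not reported here. The genes and lists were chosen with earlier results of these data known. Alternatives were other scalings, pseudocounts, filters, windows and starts, a replicate block, and leaving out each library.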

Additional observations from a re-analysis of the deposited data

How the results depend on the processing

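No setting but 1 gave a call among the imprinted promoters. Leaving out single libraries gave 0 to 6 such calls and 0 to 8012 over all promoters, both highest without ApcMin/+ replicate 2. After centring, the counts over all promoters were 41 without ApcMin/+ replicate 2, 19 and 2 without wild-type replicates 2 and 1, and 0 without ApcMin/+ replicate 1. All promoters called numbered 12 after centring and 2 after quantile normalization. The number of imprinted genes with a mean of at least 2 was 10 to 16 when a library was left out.

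The direction depended on the scaling. The median log2 difference of the imprinted genes was -0.27 after centring, -0.16 after quantile normalization and -0.42 to 1.17 with a library left out. The log2 ratio of their average signal was -0.30 after centring and 0.0897 (without ApcMin/+ replicate 1) to 1.28 with a library left out. Genes higher in ApcMin/+ without overlap numbered 1 of 14 after centring (1510 of all 12085 promoters) and 1 after quantile normalization (1777 of all). They numbered 2 of 6 with a mean of at least 5 (2521 of 7806) and 3 of 11 with windows of 2000 bp on each side (4458 of 11042). With a library left out they numbered 2 to 14 of the 14. The 14 arose without ApcMin/+ replicate 2, where 11925 of the 12085 had this order. The 2 arose with centring, without wild-type replicate 1 or ApcMin/+ replicate 2, where 3510 and 3827 had it. Those lower numbered 3 of 14 after centring (1762 of all 12085), 2 after quantile normalization (1901 of all) and 4 of 39 without a filter (6805 of 55413). With a library left out they numbered 0 to 9. The 9 arose with centring and without wild-type replicate 1, where 3758 of the 12085 were lower without overlap. After centring, *Cdkn1c* was at -0.40, *H13* at -0.014, *Herc3* at -0.62, *Inpp5f* at -0.45, *Kcnq1* at -0.34, *Mcts2* at -0.41 and *Zrsr1* at -0.65. After quantile normalization they were at -0.15, -0.026, -0.45, -0.40, -0.17, -0.22 and -0.51, and *Herc3* was at -0.21 with windows of 500 bp on each side. With a library left out, with or without centring, the ranges were -1.10 to 0.65 for *Cdkn1c*, -0.28 to 1.45 for *H13*, -0.95 to 0.79 for *Herc3*, -0.73 to 0.87 for *Inpp5f*, -1.03 to 0.67 for *Kcnq1*, -0.92 to 0.67 for *Mcts2*, -0.995 to 0.78 for *Zrsr1*, -0.18 to 1.78 for *Airn*, -0.13 to 1.85 for *Trappc9* and -0.011 to 1.83 for *Ube3a*. *Slc22a18* stayed above 0 throughout, at 0.41 to 2.27. The cause of these changes was not tested.

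The replicate numbers are shared between the groups, but nothing says that they pair mice, and the deviations of same-numbered libraries correlated at 0.189 over 12085 promoters with only 2 pairs. A replicate block gave 0 calls as deposited and 18 with centring, with a median of -0.27, 1 imprinted gene higher and 3 lower without overlap, and the centred value of each gene above. Wild-type replicate 1, at 1430000 tags, limits the precision of low promoters most. Filters, pseudocounts, windows and the choice of start did not give any imprinted gene a call.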
